A study of Mus musculus with 14 samples.

Results

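The genes described here are 36 mouse genes of the type I interferon response, taken by name from a list that runs from the transcription factors of the pathway to its antiviral effectors. The list was chosen with earlier results of these data known. Each gene was read on the Affymetrix probe set annotated to it alone that had the highest mean signal over the 14 arrays. Of the 36 genes, 34 had such a probe set, out of 18194 genes with a probe set of their own in the whole series. Isg15 was annotated only on a probe set shared with Gm9706, and Ifi44 is not analysed here. Ifit1, Oasl2 and Mx2 stayed below the filter on low signal, so 31 genes were tested.

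The arrays measured total RNA of mouse T cells that had been polarised in culture to Th1 or Th2 cells over a period the labels give as weeks. The series asks how expression changes when the channel Trpm4 is blocked. Trpm4 passes monovalent cations when calcium rises inside the cell. In each of the 2 cell types, 7 conditions were measured on 1 array each. These were untreated cells, cells with Thy1 siRNA as the control for cells with Trpm4 siRNA, and cells with the vector only or with dominant negative Trpm4, each after stimulation for 4 h or 12 h. The vector and the dominant negative construct were delivered by retrovirus. The labels give no strain, age, stimulus or transduced share of cells, and they give no stimulation or time for the untreated and siRNA arrays.

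Type I interferons bind a receptor on most cell types and activate the kinases Jak1 and Tyk2, which phosphorylate Stat2. Stat2 acts with Irf9 in a complex that binds a promoter sequence called the interferon-stimulated response element. Interferon gamma, the signature cytokine of Th1 cells, uses another receptor and acts through another promoter sequence, the gamma-activated site, and many genes answer to both. The products detect viral nucleic acid, block viral translation, assembly and release, or help to present viral peptides on the cell surface.

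The promoters of the genes were searched for both sequences. In RefSeq windows on GRCm38.p6 that run from 250 bases before to 50 bases after a gene's start, 27 of the 36 genes had a window. The core of the interferon-stimulated response element was searched as GAAANNGAAA on both strands. It was in the windows of 11 of the 27 genes (40.7%), against 3.99% of the 27025 genes with a window and 3.44% of all 32851 windows. The 11 were Stat2, Ifit1, Ifit3, Oas1a, Oas3, Ifih1, Eif2ak2, Isg15, Trim30a, Rsad2 and Bst2. The core of the gamma-activated site, searched as TTCNNNGAA, which reads the same on both strands, was in those of 8 genes (29.6%), against 9.55% of genes and 8.30% of windows. The 8 were Irf1, Ifit2, Oas1a, Eif2ak2, Bst2, Isg20, Ifi35 and Psmb8. Both motifs were in the windows of 3 genes, and 11 genes had neither. A match is a description of these letters and not evidence of a bound site.

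The 160 bases before the start are printed for 6 genes whose array values are described below, 2 with the gamma-activated core alone (Irf1 and Psmb8), 3 with the interferon-stimulated core alone (Ifit3, Oas3 and Rsad2) and 1 with both, overlapping (Bst2). They are in the direction of transcription, 5′ to 3′, from RefSeq on GRCm38.p6, and the capitals mark the matches on either strand.
Irf1 (chr11:53769854-53770013, plus strand): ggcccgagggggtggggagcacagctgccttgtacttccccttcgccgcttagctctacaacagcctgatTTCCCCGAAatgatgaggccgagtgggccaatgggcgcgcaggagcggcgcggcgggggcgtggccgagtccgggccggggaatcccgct
Ifit3 (chr19:34583369-34583528, plus strand): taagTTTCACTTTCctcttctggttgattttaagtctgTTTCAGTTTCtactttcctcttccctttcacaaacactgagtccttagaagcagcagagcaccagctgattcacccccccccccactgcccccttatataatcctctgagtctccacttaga
Oas3 (chr5:120777660-120777819, minus strand): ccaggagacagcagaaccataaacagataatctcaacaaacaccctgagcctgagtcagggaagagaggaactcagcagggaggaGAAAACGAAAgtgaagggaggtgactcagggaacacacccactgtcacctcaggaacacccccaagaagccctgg
Rsad2 (chr12:26456453-26456612, minus strand): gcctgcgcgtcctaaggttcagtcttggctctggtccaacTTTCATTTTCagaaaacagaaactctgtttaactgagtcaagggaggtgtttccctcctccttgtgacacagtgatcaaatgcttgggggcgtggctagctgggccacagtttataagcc
Bst2 (chr8:71537473-71537632, minus strand): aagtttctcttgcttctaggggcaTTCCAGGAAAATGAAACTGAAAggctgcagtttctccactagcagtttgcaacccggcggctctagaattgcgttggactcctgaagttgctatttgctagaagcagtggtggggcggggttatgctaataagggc
Psmb8 (chr17:34198035-34198194, plus strand): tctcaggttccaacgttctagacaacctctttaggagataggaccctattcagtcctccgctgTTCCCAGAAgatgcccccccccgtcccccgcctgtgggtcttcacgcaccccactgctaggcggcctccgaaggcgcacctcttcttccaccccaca

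In Ifit3, which encodes a cytoplasmic protein that binds other IFIT proteins and viral RNA, the stretch holds 2 matches. Several of the genes are neighbours in the genome. Of the 34 found in the RefSeq gene table, 14 stood next to another of the list with no protein-coding gene between, in 8 neighbouring pairs. They were Rsad2 and Cmpk2 on chromosome 12, Parp14, Dtx3l and Parp9 on chromosome 16, Psmb9, Tap1 and Psmb8 on chromosome 17, Ifit2 and Ifit3 on chromosome 19, and Oasl2 with Oasl1 and Oas2 with Oas3 on chromosome 5. The windows of Tap1 and Psmb9, which are transcribed away from each other, share 275 bases.

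The labels were checked against markers. Of the Th2 markers 5 of 5 tested, Gata3, Il4, Il5, Il13 and Ccr8, were lower in Th1 than in Th2 arrays, and of the Th1 markers 2 of 5, Ifng and Il12rb2, were higher. Trpm4 was lower with Trpm4 siRNA than with Thy1 siRNA by 0.72 in Th1 and by 0.63 in Th2 on the log2 scale, which did not pass the test (limma, adjusted p = 0.409). With dominant negative Trpm4 it read higher than with the vector by 2.59 in Th1 at 12 h and between −0.21 and 0.60 in the other pairs, and the probe set does not tell the construct from the cell's own gene. Total signal ran from 7324678 to 10608719 per array. Each condition had 1 array, and the tests took the matched pairs in place of replicates. Within a cell type, the arrays of 1 set (siRNA, 4 h or 12 h) correlated at 0.987 to 0.996, so pairs are not independent. The p-values measure only the spread between these samples, and precision is limited by how few arrays there are. On 6 arrays, those at 4 h in both cell types and those at 12 h in Th2, the 3′ probe sets of the Gapdh control stood 5.64 to 6.07 above its 5′ probe sets (log2), against −0.36 to 0.06 on the other 8.

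Levels are given as log2 of the quantile-normalised signal plus 16, on which the lowest possible value is 4.0 and the median probe set stood at 5.39. A difference on this scale understates the change of a weak signal. The range over the 14 arrays went from 0.94 for Dhx58, an RNA helicase of the RIG-I family, to 4.31 for Irf1, a transcription factor that interferon gamma strongly induces. The other genes of widest range were Rtp4, Parp14, Bst2, Ifih1 and Oas3. When each gene was set to its own mean, the median over the 31 genes was highest on the untreated Th2 array at 0.96 and lowest on the 12 h Th1 arrays at −0.82 and −0.86. In each cell type it was highest in untreated cells and lowest at 12 h, and in each condition it was lower in Th1 than in Th2. The 3 genes below the filter ranged from 4.38 to 5.79 (Ifit1), 4.26 to 5.42 (Oasl2) and 4.09 to 4.64 (Mx2).

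**Figure D1:**
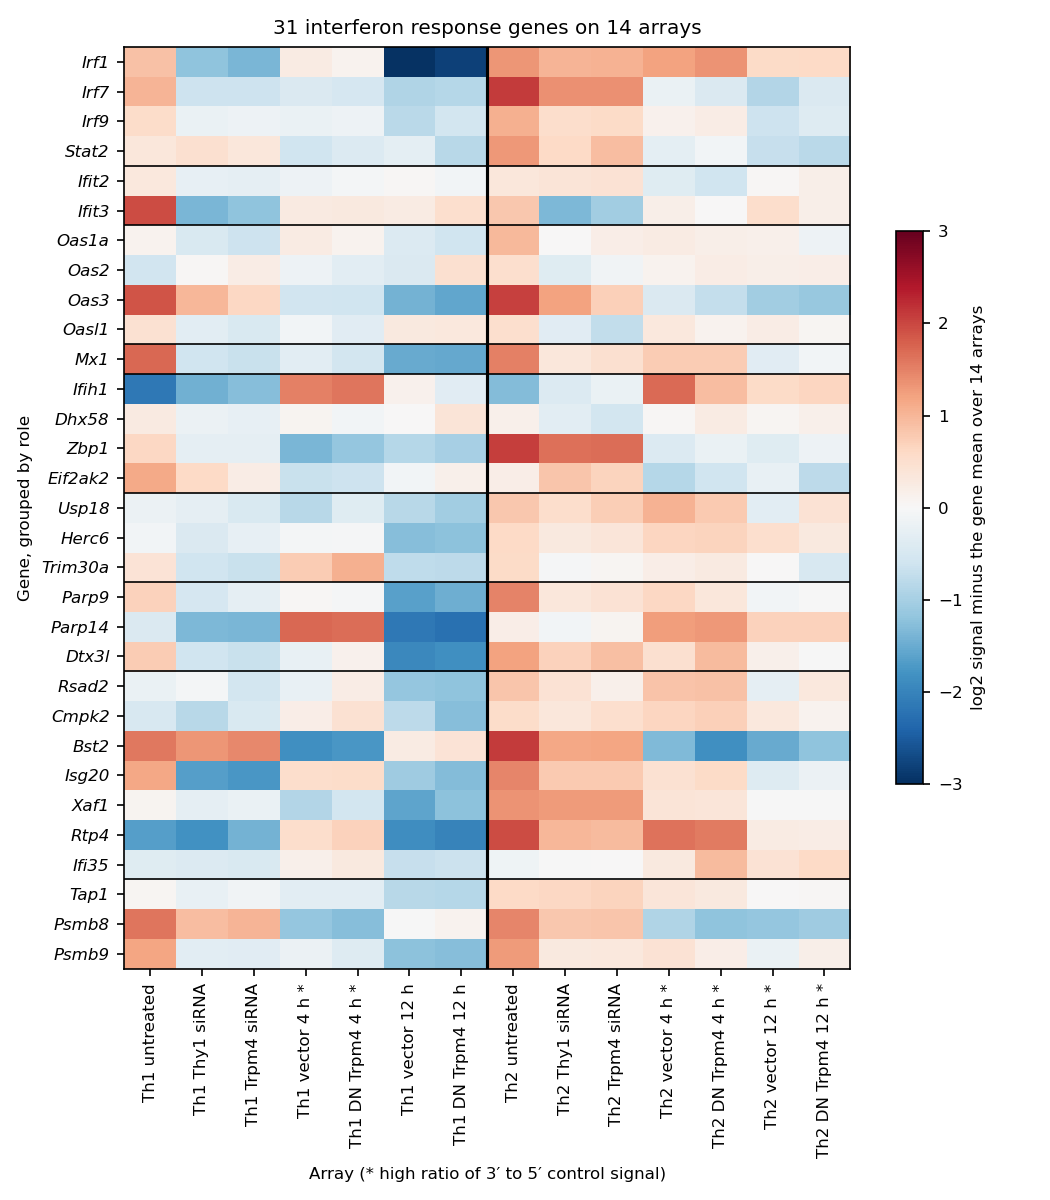
Level of each of the 31 tested genes on each of the 14 arrays, as log2(signal + 16) minus the gene's mean over the arrays, with genes grouped by role and an asterisk on the 6 arrays with high 3′ to 5′ control ratios. The widest ranges are those of Irf1 (4.31), Rtp4, Parp14, Bst2, Ifih1 and Oas3.

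**Figure D2:**
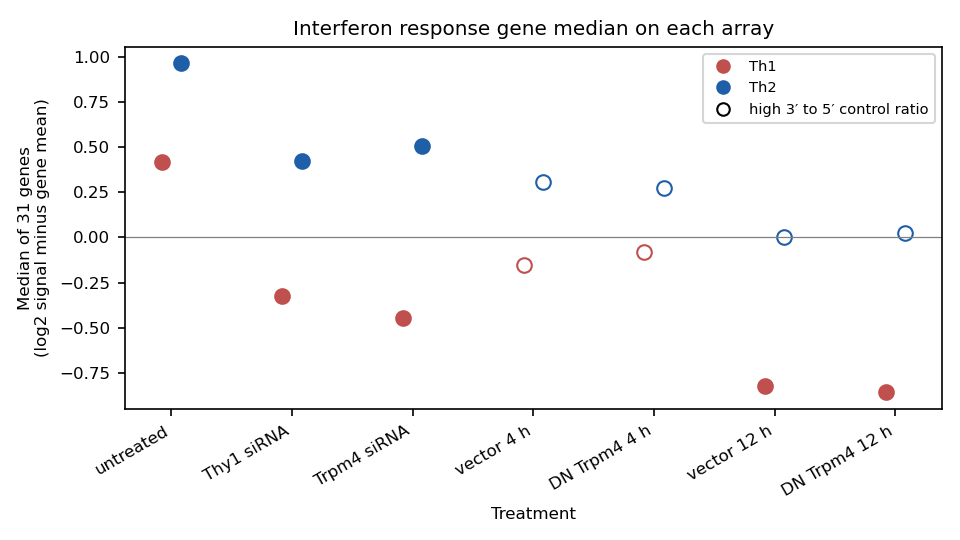
Median over the 31 genes of the level minus the gene's own mean (log2), for each of the 14 arrays. The medians run from −0.86 (Th1, dominant negative Trpm4, 12 h) to 0.96 (Th2, untreated), and the Th1 array lies below the Th2 array in all 7 conditions.

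Set against Th2, Th1 cells had lower levels of a large share of the interferon response genes. Over the 7 pairs of matched condition, 14 of the 31 genes were lower in Th1 and 0 were higher, where 6.14% of all 29467 probe sets were lower and 3.65% were higher (limma, adjusted p under 0.05). The median difference was −0.72 on the log2 scale, against 0.01 over all probe sets. The largest among those that passed were Rtp4, at −2.16 ± 0.30 (SE), and Irf1, at −2.03 ± 0.37. In single pairs the median over the 31 genes lay between −0.35 and −0.88, and 16 genes were lower in Th1 in 7 of 7 pairs. The share of all probe sets lower in 7 of 7 pairs is not given here, and pairs of the same set are not independent. In bulk RNA, fewer cells that make a transcript and less of it per cell cannot be told apart.

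**Figure D3:**
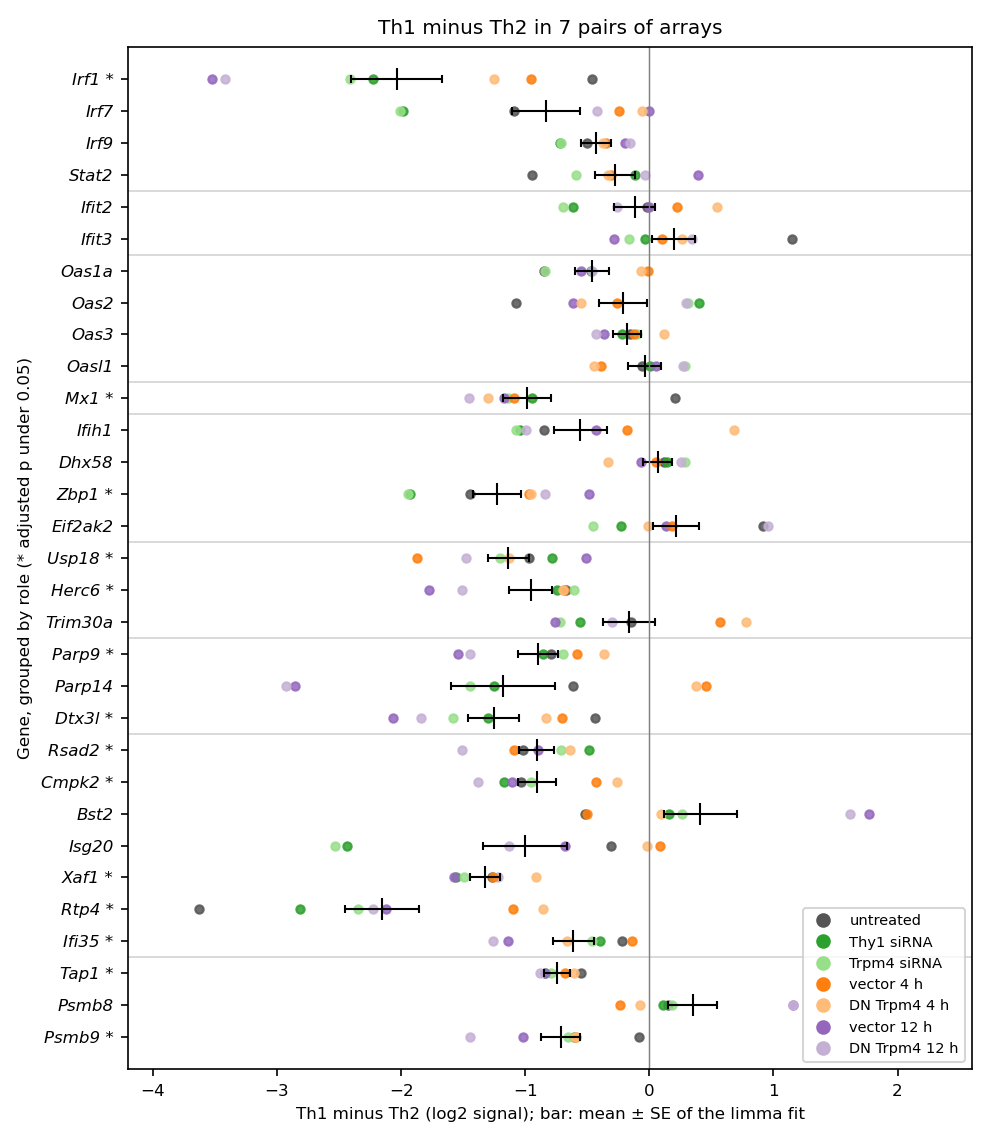
Th1 minus Th2 difference (log2) of each of the 31 genes in each of the 7 matched pairs, as points, with the mean over pairs. The 14 genes that passed had mean differences from −0.61 (Ifi35) to −2.16 (Rtp4). Bst2, at 0.41, had the highest mean, which was −0.10 without the 2 pairs at 12 h.

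Among the transcription factors, Irf1 passed. Its level in Th1 ran from 7.07 over a median of 8.84 to 10.91, and in Th2 from 10.60 over 11.07 to 11.39. The Th1 values were spread widely by condition while the Th2 values lay close together, and the groups overlapped only through the untreated Th1 array. The difference was −2.03 ± 0.37 (adjusted p = 0.00914), with single pairs from −3.52 to −0.46. Irf7, which amplifies interferon production, Irf9 and Stat2 had differences of −0.83, −0.43 and −0.28 that did not pass, with adjusted p of 0.0871, 0.0502 and 0.291.

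Of the Mx, IFIT and OAS families, Mx1 passed and the tested IFIT and OAS genes did not. Mx1, a GTPase that traps viral ribonucleoproteins, was lower in Th1 by −0.99 ± 0.19 (adjusted p = 0.0125), in 6 of 7 pairs. The 2 tested IFIT genes had differences of −0.12 (Ifit2) and 0.20 (Ifit3). The 4 tested OAS genes, whose products make the activator of RNase L or resemble the enzymes that do, had differences from −0.46 (Oas1a) to −0.04 (Oasl1). Oas3 ran from 4.62 over 5.62 to 8.07 in Th1 and from 5.05 over 5.74 to 8.23 in Th2, and these ranges overlapped over most of their length.

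Zbp1 was the sensor that passed. It binds nucleic acid in the Z form and can start necroptosis. Its level ran from 6.84 over 7.37 to 8.84 in Th1 and from 7.81 over 8.06 to 10.28 in Th2. The siRNA and untreated arrays were the highest of their cell type, and the 2 groups overlapped although Th1 was lower in every matched pair. The difference was −1.23 ± 0.19 (adjusted p = 0.00471). A second probe set of Zbp1 gave −1.57 and passed too. Ifih1, the sensor MDA5 of long double-stranded RNA, ran from 6.29 over 8.09 to 10.06 in Th1 and from 7.14 over 9.01 to 10.14 in Th2. Its difference of −0.56 did not pass (adjusted p = 0.129), nor did those of Eif2ak2, the kinase PKR (0.21), and Dhx58 (0.07).

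In the ISG15 and ubiquitin group, Usp18 and Herc6 passed. Usp18, which removes ISG15 from proteins and restrains interferon receptor signalling, ran from 4.38 over 4.97 to 5.26 in Th1 and from 5.11 over 6.17 to 6.47 in Th2. All Th1 values lay under the median signal, and only the Th2 array with the vector at 12 h lay within the Th1 range. The difference was −1.14 ± 0.16 (adjusted p = 0.00315). Herc6, the ligase that attaches ISG15 in mice, ran from 6.22 to 7.45 in Th1 and from 7.78 to 8.15 in Th2, with a difference of −0.96 ± 0.17 (adjusted p = 0.00913). It was the 1 gene of 31 (3.23%) whose Th1 arrays all lay below its Th2 arrays, against 1.49% of all probe sets. Its 3 other probe sets gave differences from −0.28 to −0.01 that did not pass. Trim30a, a negative regulator of Toll-like receptor signalling, had a difference of −0.16 that did not pass.

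The 3 neighbours of chromosome 16 belong to the PARP group. Dtx3l, a ubiquitin ligase that forms a complex with Parp9, ran from 7.19 over 8.51 to 9.87 in Th1 and from 9.11 over 9.81 to 10.31 in Th2. The lowest Th1 values were at 12 h, and the groups overlapped. The difference was −1.25 ± 0.21 (adjusted p = 0.00604), and its second probe set gave −0.94 and passed. Parp9 was lower by −0.90 ± 0.16 (adjusted p = 0.00941). Parp14, a mono-ADP-ribosyltransferase, ran from 6.48 over 7.39 to 10.44 in Th1 and from 8.64 over 9.41 to 10.04 in Th2. Its difference of −1.18 ± 0.42 did not pass (adjusted p = 0.104), and its 2 pairs at 4 h were higher in Th1. Without the 2 pairs at 12 h, where the arrays differed in the control ratio, it was −0.50. Dtx3l was then at −0.97 and Parp9 at −0.66.

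Of the 7 other effectors tested, 5 passed. Xaf1, a pro-apoptotic partner of XIAP, ran from 6.18 over 7.23 to 7.85 in Th1 and from 7.76 over 8.16 to 9.12 in Th2. Only the untreated Th1 array reached the lowest Th2 values. The difference was −1.33 ± 0.12, with the smallest adjusted p of the list (2.1e-04), and single pairs lay between −1.58 and −0.91. Rtp4, a chaperone of G protein-coupled receptors and a negative regulator of interferon responses, ran from 4.58 over 4.92 to 7.29 in Th1 and from 6.81 over 7.59 to 8.55 in Th2. The Th1 arrays at 4 h were its only Th1 values above 5.17 and the only ones to reach the Th2 range. The difference was −2.16 ± 0.30 (adjusted p = 0.00238).

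Rsad2 and Cmpk2, the neighbours of chromosome 12, make an antiviral nucleotide pathway, Cmpk2 a mitochondrial nucleotide kinase and Rsad2, called viperin, an enzyme that turns CTP into a chain terminator. Rsad2 ran from 5.04 over 6.01 to 6.48 in Th1 and from 5.98 over 6.67 to 7.11 in Th2, and Cmpk2 from 4.72 over 5.52 to 6.46 and from 6.10 over 6.51 to 6.72. In both genes the groups overlapped, while every matched pair was lower in Th1. Rsad2 differed by −0.91 ± 0.14 (adjusted p = 0.00440) and Cmpk2 by −0.91 ± 0.16 (adjusted p = 0.00728). The 2 other probe sets of Rsad2 gave −0.51 and −0.20 and did not pass. Ifi35 was lower by −0.61 ± 0.16 (adjusted p = 0.0431). Of its other probe sets, 1 gave −0.56 and passed and 1 gave −0.29 and did not. Isg20, an exonuclease of single-stranded RNA, had a difference of −1.0 (adjusted p = 0.0898). Bst2, called tetherin, which holds budding virions on the cell, ran from 5.34 over 7.59 to 8.75 in Th1 and from 5.33 over 5.97 to 9.28 in Th2, with a difference of 0.41 that did not pass.

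In antigen processing, Tap1 and Psmb9 passed. Tap1, a subunit of the peptide transporter of the endoplasmic reticulum, ran from 8.17 over 8.72 to 9.08 in Th1 and from 9.04 over 9.39 to 9.70 in Th2. The ranges met only at the untreated Th1 array and the 12 h Th2 arrays. The difference was −0.74 ± 0.11 (adjusted p = 0.00282). Its other probe set above the filter gave −0.29 and did not pass. Psmb9, an immunoproteasome subunit, was lower by −0.72 ± 0.16 (adjusted p = 0.0224). Psmb8, another such subunit, had a difference of 0.35 that did not pass, whereas its second probe set gave −0.63 and passed (adjusted p = 0.0344), so its direction is not settled. Over the list, 14 of the 17 other probe sets had the direction of the chosen one. For 10 of them the chosen probe set was called, and 3 of these 10 were called in the same direction.

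At 12 h the Th1 and Th2 arrays differed in the 3′ to 5′ control ratio. Without those 2 pairs, 11 genes were called, beside 4.26% of all probe sets, and the median was −0.51. Mx1, Ifi35 and Psmb9 no longer passed. Bst2 differed by 1.77 and 1.62 in the 2 pairs at 12 h (vector, then dominant negative Trpm4) and by −0.10 without them. Psmb8 differed by 1.16 in each of these 2 pairs and by 0.03 without them. In a fit of all 7 pairs without the pairing, 2.84% of all probe sets and 5 genes passed: Xaf1, Rtp4, Tap1, Usp18 and Herc6.

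Genes of the same pathway outside the list were read as well, from lists also chosen with earlier results of these data known. Of 28 other interferon-induced genes tested, 10 were lower in Th1 and 0 higher, with a median of −0.54. They included Parp12, at −1.91 ± 0.22, Trim21, an antibody receptor of the cytosol, at −1.28 ± 0.20, and Ifi27l2a, at −1.83 ± 0.46. Of 9 sensors and adaptors 3 were lower, Ddx58 (the sensor RIG-I, at −1.22), Myd88 and Tbk1, and Aim2 was higher. Of 8 ligands and receptors, Ifng was higher in Th1 by 3.54 ± 0.27 and the receptor chains Ifngr2, by −1.23 ± 0.13, and Ifnar2, by −0.67 ± 0.18, were lower. Of 12 signalling genes, Irf4 and Irf5 were higher and the inhibitors Socs3, by −1.95, and Ptpn2, by −0.70, were lower, and of 9 antigen presentation genes H2-D1 was lower. Markers of other cells were read beside these. Of 10 macrophage and dendritic cell markers 0 passed by limma, and their summed signal was lower in Th1 than in Th2 in every set, at 470 against 568 in untreated cells, 261 to 304 against 328 to 350 with siRNA, 270 to 282 against 289 to 321 at 4 h and 208 to 273 against 297 to 339 at 12 h. Of 3 CD8 T and natural killer cell markers 0 passed, with sums over the 4 measured of 529.5 in Th1 and 217 in Th2 in untreated cells and of 338 to 373 and 882 to 884 with siRNA. Of 5 B cell markers 0 passed, and of 3 plasmacytoid dendritic cell markers Pacsin1 was lower, with Tlr7 not above the median signal on any array and Siglech below the filter. The part of these markers in the result was not tested.

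Between 4 h and 12 h of stimulation, part of the list moved down in Th2 cells. In Th2, where all 4 arrays had the same high control ratio, 7 of the 31 genes were lower at 12 h and 1 was higher, against 5.57% and 4.51% of all probe sets. The median was −0.39, against 0.01 over all probe sets. Rtp4 read 8.20 and 8.14 at 4 h and 6.84 and 6.81 at 12 h (vector, then dominant negative Trpm4), a difference of −1.35 ± 0.14 (adjusted p = 0.00193). Mx1 read 7.0 and 6.99 at 4 h and 5.89 and 6.15 at 12 h, a difference of −0.97 ± 0.15 (adjusted p = 0.00645). In both genes the times did not overlap, and the share of all probe sets for which this holds is not given here. Isg20 fell by 0.79, Rsad2 by 0.85, Irf9 by 0.68, Irf1 by 0.69 and Parp14 by 0.60. Ifit2 rose by 0.59 ± 0.15 (limma, adjusted p = 0.0456). Each of these means rests on 2 pairs. Rsad2 stood at −1.13 with the vector and −0.56 with dominant negative Trpm4, and Ifit2 at 0.40 and 0.78. The 2 other probe sets of Rsad2 gave −0.19 and −9e-04 and did not pass. The second probe set of Parp14 gave −0.77 and passed. On the deposited signal, 0 genes were higher and 10 lower, and on median-centred arrays 0 and 9. With a pseudocount of 1 in place of 16, 0 genes and 0 probe sets passed by limma, and 14 genes and 6508 probe sets had an unadjusted p under 0.05. Of the other interferon-induced genes 11 of 28 were lower and 0 higher, with Slfn1 at −1.46 and Ifitm2 at −1.09.

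In Th1 the 12 h arrays differed from the 4 h arrays both in time and in the control ratio, so these cannot be told apart. There 19 genes were lower and 4 higher at 12 h, against 29.1% and 27.0% of all probe sets, and the median was −0.70, against −0.01. Parp14 read 10.44 and 10.41 at 4 h and 6.57 and 6.48 at 12 h, a difference of −3.90 ± 0.13 (adjusted p = 7.8e-07). Irf1 read 10.29 and 10.14 at 4 h and 7.07 and 7.22 at 12 h, a difference of −3.06 ± 0.14 (adjusted p = 1.9e-06). Rtp4 read 7.10 and 7.29 at 4 h and 4.72 and 4.58 at 12 h, a difference of −2.55 ± 0.14 (adjusted p = 3.8e-06). In these 3 genes the values of the 2 constructs lay close together and the times far apart. The second probe set of Parp14 gave a smaller difference, −1.60, and passed. Dtx3l, Isg20 and Trim30a were lower by −1.83, −1.74 and −1.68. Bst2 read 5.34 and 5.42 at 4 h and 7.42 and 7.59 at 12 h, a difference of 2.12 ± 0.20, and Psmb8, Eif2ak2 and Oasl1 were higher by 1.26, 0.67 and 0.52.

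For 5 genes, Zbp1, Psmb8, Tap1, Stat2 and Herc6, another probe set in Th1 passed in the direction opposite to the chosen probe set's value. Over all 14 arrays, Bst2, Psmb8 and Eif2ak2 lay below their other levels on every array with a high control ratio, Bst2 at 5.33 to 5.97 against 7.42 to 9.28 and Psmb8 at 9.0 to 9.36 against 10.26 to 11.88. Ifih1, Parp14 and Ifi35 lay above theirs, Ifih1 at 9.01 to 10.14 against 6.29 to 8.58. These 3 genes in each direction are 9.68% of the 31, against 11.8% of all probe sets below and 11.7% above. The part of the control ratio in these values was not tested.

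**Figure D4:**
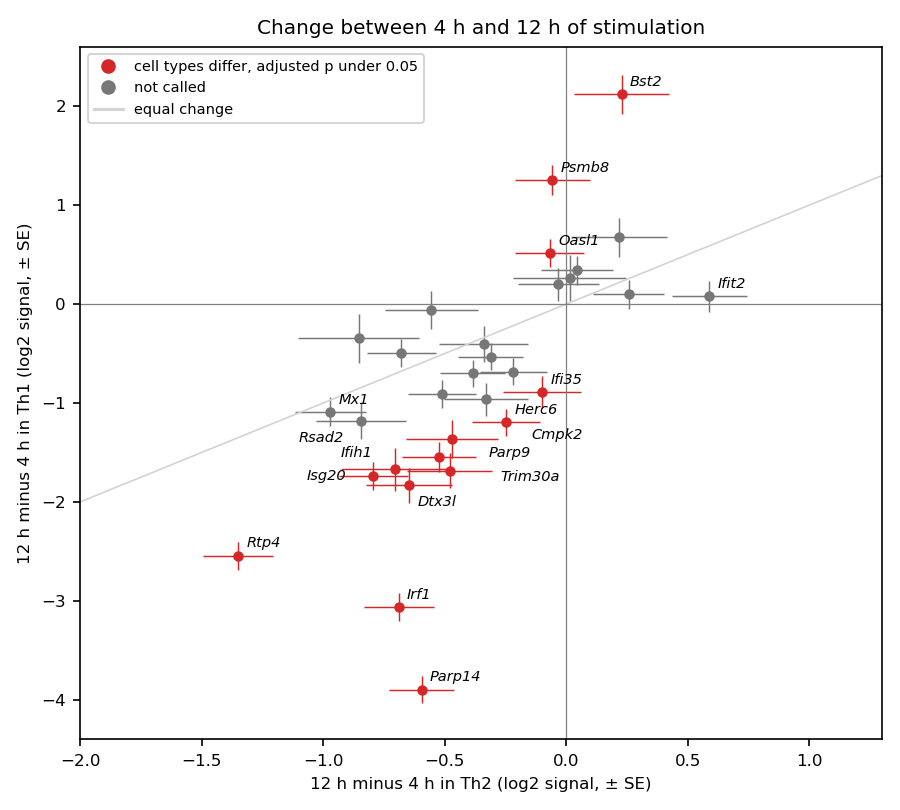
Difference between 12 h and 4 h (log2) of each of the 31 genes in Th1 (vertical) against Th2 (horizontal), each the mean of the vector and dominant negative Trpm4 pairs. Parp14 lies at −3.90 in Th1 and −0.60 in Th2, Rtp4 at −2.55 and −1.35, and Bst2 at 2.12 and 0.23.

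The test of the difference between the 2 changes called 11 genes whose change was lower in Th1 and 3 whose change was higher, against 20.1% and 18.1% of all probe sets, with a median of −0.34, against −0.03. Parp14 differed by −3.31 ± 0.19 and Irf1 by −2.37 ± 0.20. Both fell in both cell types and by more in Th1. The second probe set of Parp14 gave a smaller difference, −0.83, and passed. Trim30a, Rtp4, Dtx3l and Parp9 followed, from −1.20 to −1.02. Rtp4 stood near the floor in Th1 at 12 h, and its value ran from −2.23 to −0.35 over the alternatives. Its call was kept in 13 of 14 of them and lost with a pseudocount of 64. Bst2, Psmb8 and Oasl1 differed by 1.89, 1.31 and 0.58. The call of Oasl1 (limma, adjusted p = 0.0497) was lost in 11 of 13 alternatives, where its adjusted p reached 0.375. With the dominant negative Trpm4 pair of Th1 left out, 19.8% of all probe sets and 6 genes were called: Irf1, Parp14, Parp9, Rtp4, Bst2 and Psmb8. Th1 and Th2 also differ in the control ratio here, as above.

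Untreated cells had the highest levels of most of the genes. The 3 comparisons below share the 2 untreated arrays, so their values are given side by side and not compared. The siRNA and untreated arrays had like control ratios. The labels give no stimulation or time for them, so siRNA, stimulation, time and array set cannot be told apart. With siRNA, 15 genes were lower than in untreated cells and 1 was higher, against 17.1% and 21.2% of all probe sets. The median was −0.56, against 0.04. Ifit3 read 7.51 in untreated Th1 cells and 4.18 (Thy1) and 4.35 (Trpm4) with siRNA, and 6.37, 4.21 and 4.51 in Th2. All 4 siRNA arrays lay near the floor and below both untreated arrays, a difference of −2.63 ± 0.30 (adjusted p = 0.00243). Mx1 was lower by −1.74 ± 0.29, Psmb9 by −1.25 ± 0.17, Parp9 by −1.10 ± 0.14, Oas3 by −1.08 ± 0.20 and Oasl1 by −0.94 ± 0.17. Ifih1 was higher by 0.89 ± 0.15 (adjusted p = 0.00656), in 4 of 4 siRNA arrays. Irf1 (−1.23), Bst2 (−0.56) and Rsad2 (−0.33) did not pass. Psmb8 read −0.64 on the chosen probe set and passed as higher on its second (2.43, adjusted p = 9.0e-04), so its direction is not settled.

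The deposited signal shifted the median of all probe sets in this comparison to 0.28 and gave 8 genes lower and 2 higher, and without the block for cell type 26.2% of all probe sets and 6 genes passed. Relative to untreated cells, 14 of 28 other interferon-induced genes were lower with siRNA, among them Slfn1 at −2.16 and Ly6e at −1.94, and Cxcl10, a chemokine that interferon gamma induces, was higher by 1.20. Other markers moved in the same comparison. All 5 T cell markers tested were lower, with summed signals of 14160 and 14380 in untreated cells and 4380 to 7310 with siRNA. Of 10 macrophage and dendritic cell markers 3 were lower and 1 higher, with sums of 470 and 568 in untreated cells and 261 to 350 with siRNA. Of 3 CD8 T and natural killer cell markers 1, Eomes, was higher. Ifng rose by 3.54 ± 0.39. Their part in the result was not tested.

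Against the same untreated arrays, 17 genes were lower and 3 higher with retrovirus at 4 h, against 28.9% and 33.9% of all probe sets, with a median of −0.62, against 0.07. Time, stimulation, retrovirus and the control ratio cannot be told apart in this comparison. Bst2 (−3.53 ± 0.19), Psmb8 (−2.67 ± 0.16), Oas3 (−2.54 ± 0.15), Zbp1 (−2.13 ± 0.18) and Irf7 (−1.95 ± 0.23) were lower, and Ifih1 (3.16 ± 0.31), Parp14 (1.61 ± 0.24) and Ifi35 (0.66 ± 0.21) were higher. The second probe set of Psmb8 passed as higher (0.85, adjusted p = 0.0219), against the chosen one, so the direction of this gene is not settled. Rsad2 (0.12) and Herc6 (0.03) did not pass on the chosen probe sets. Of their other probe sets, 1 of Rsad2 (−1.21) and 2 of Herc6 (−1.64 and −1.26) passed as lower. The second probe set of Parp14 (0.05) did not pass. For Ifi35, 1 other probe set passed as higher (0.94) and 1 did not pass (−0.37). In the same comparison 4 of 5 T cell markers were lower, with a median of −1.31, and of 10 macrophage and dendritic cell markers 4 were lower and 1 higher. Of 3 CD8 T and natural killer cell markers 2 were lower and 1 higher, with sums of 529.5 and 217 in untreated cells and 66.1 to 89.3 at 4 h. Their part in the result was not tested.

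At 12 h, 21 genes were lower than in untreated cells and 1 was higher, against 19.1% and 24.7% of all probe sets. The median was −1.0, against 0.07. Time, stimulation and retrovirus cannot be told apart in this comparison either, and in Th2 the control ratio differs as well. Against untreated cells, Bst2 stood at −1.33 and −1.17 in Th1 and at −3.63 and −3.31 in Th2 (vector, then dominant negative Trpm4). Psmb8 stood at −1.62 and −1.52 in Th1 and at −2.62 and −2.53 in Th2. The part of the control ratio in these values was not tested. Oas3 read 8.07 in untreated Th1 cells and 4.78 and 4.62 at 12 h, and 8.23, 5.15 and 5.05 in Th2. All 4 values at 12 h lay below the median signal, a difference of −3.25 ± 0.17 (adjusted p = 5.3e-04). Mx1 (−2.49 ± 0.35), Bst2 (−2.36 ± 0.48), Irf7 (−2.32 ± 0.26), Irf1 (−2.25 ± 0.63) and Isg20 (−2.06 ± 0.21) were lower, and Ifih1 was higher by 1.97 ± 0.20. The 4 transcription factors and the 3 antigen processing genes passed as lower. Irf1 no longer passed when any 1 of the 4 arrays at 12 h was left out, and Tap1 when either Th1 array was, and the second probe set of Psmb8 (0.36, against −2.07) did not pass. With 1 array left out, 15 to 20 genes passed, 15 without dominant negative Trpm4 in Th1. Ifit3, Oas1a, Eif2ak2, Usp18 and Rsad2 also lost their call in some of these fits. In Th1 alone, the 12 h and untreated arrays had like control ratios. There the median over the 31 genes was −1.22 with the vector and −1.17 with dominant negative Trpm4. Over all probe sets it was 0.11 and 0.10. Both values rest on the same 1 untreated Th1 array. Without the block for cell type, 25.0% of all probe sets and 12 genes passed, without Irf1 and Tap1. In this comparison T cell markers were lower for 3 of 5 and macrophage and dendritic cell markers for 4 of 10. Of 3 CD8 T and natural killer cell markers 2 were lower and Eomes was higher, with a median of −1.58 and sums of 64.2 to 116 at 12 h. Their part in the result was not tested. Of the pathway outside the list, 17 of 28 other interferon-induced genes were lower and 0 higher.

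Inhibition of Trpm4, the question of the series, gave no call in the list. Over 6 pairs of both methods and both cell types, 0 of 31 genes and 0% of all probe sets passed by limma. At an unadjusted p under 0.05 there were 2 of the 31 genes and 1733 of 29467 probe sets (5.88%). The median was 0.02, against 0.00 over all probe sets, and single pairs had medians from −0.03 to 0.05. The 2 genes were Oas3, at −0.23 ± 0.08, and Oasl1, at −0.19 ± 0.07 (adjusted p = 0.809 for both). The highest values were those of Oas2, at 0.22 ± 0.12, Ifi35, at 0.17, and Dtx3l, at 0.15.

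In the siRNA pairs, Oas3 in Th1 read 7.17 with the Thy1 control and 6.81 with the Trpm4 siRNA, and in Th2 it read 7.39 and 6.90. It was lower with Trpm4 siRNA in both pairs, by −0.43 ± 0.10, and did not pass (adjusted p = 0.409). Rsad2 was at −0.39 ± 0.11 and Cmpk2, its neighbour, at 0.27 ± 0.11, and neither passed. With dominant negative Trpm4 over 4 pairs, Rsad2 was at 0.25 ± 0.12 and Ifih1 at −0.27 ± 0.15, and again 0 genes and 0% of probe sets passed by limma, with 0 genes and 997 probe sets at an unadjusted p under 0.05. In the siRNA pairs these counts were 0 genes and 0% passed, and 2 genes and 3318 probe sets.

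Taken by cell type, 0 genes and 0% of probe sets passed by limma in Th1, in Th2 or in the difference between them. At an unadjusted p under 0.05 there were 1, 2 and 0 genes, and 928, 1824 and 1032 probe sets. The medians were 0.02, 0.01 and 0.03. In Th1 the values furthest from 0 were those of Oas2, at 0.31 ± 0.18, and Xaf1, at 0.25 ± 0.10, and in Th2 those of Ifi35, at 0.28 ± 0.13, and Oas3, at −0.28 ± 0.11. A p that misses the threshold does not show that the values are equal.

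**Figure D5:**
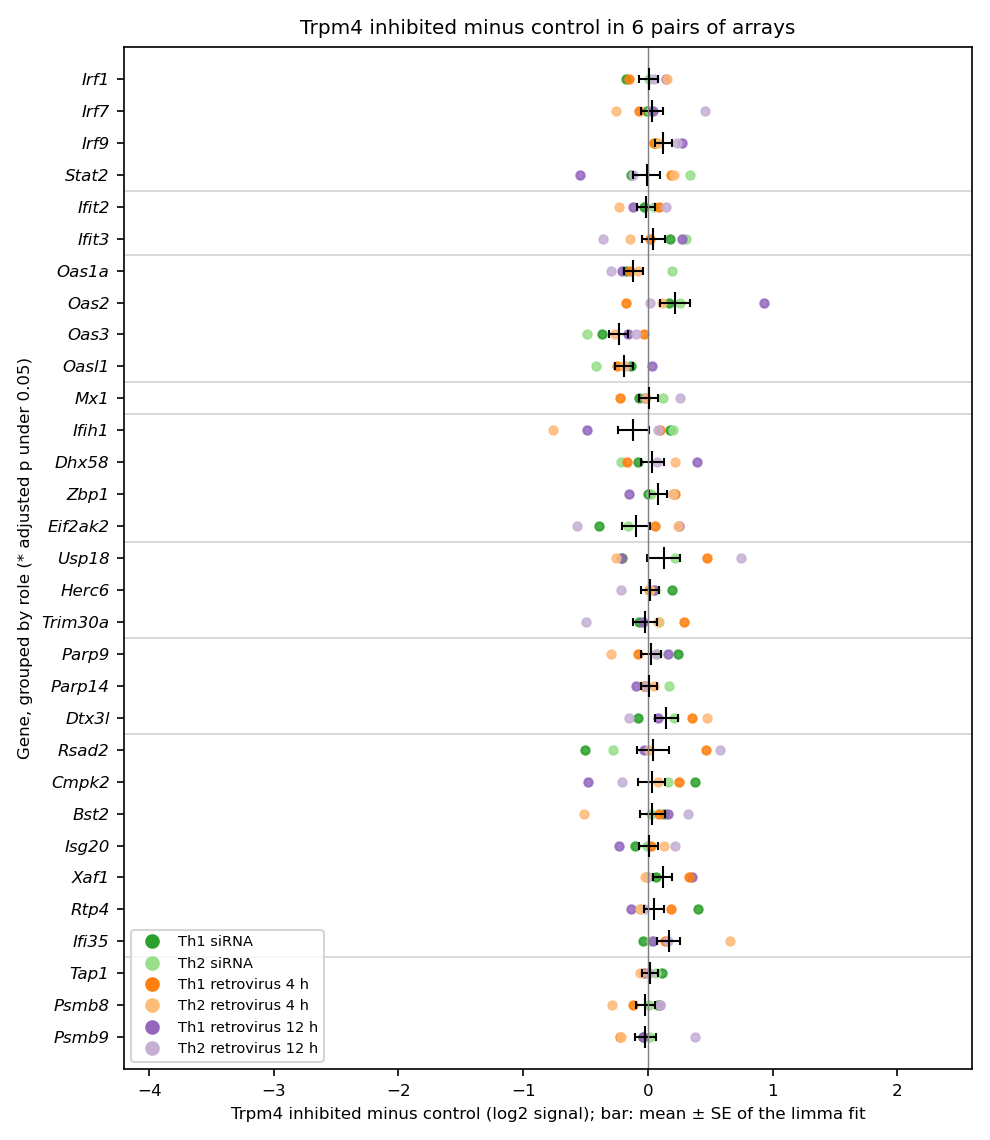
Trpm4 inhibited minus control difference (log2) of each of the 31 genes in each of 6 pairs, as points, with the mean over pairs, on the horizontal range used for Th1 minus Th2. The means lie between −0.23 (Oas3) and 0.22 (Oas2).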

How the data were processed

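The authors deposited 1 value per probe set and array, a signal intensity on a linear scale, for 14 arrays. The summary and scaling software: not given in the sources used here. RNA was extracted with Trizol and labelled with biotin, per the labels. All 45101 probe sets were quantile normalised and taken as log2 of signal plus 16. No test used the 64 control probe sets. A probe set was kept when above the array's median in at least 2 arrays, which left 29467. Each comparison was fitted over these with lmFit and eBayes of limma 3.58.1 (R 4.3.3), two-sided, with the matched pair or the cell type as a block and Benjamini-Hochberg adjusted p under 0.05. A gene's difference and call come from its chosen probe set.

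Residual degrees of freedom were 6 for Th1 minus Th2, 2 for 12 h minus 4 h and its difference, 3 for each comparison with untreated cells, 5 for Trpm4 over all pairs, 4 by cell type, 3 for dominant negative Trpm4 and 1 for the siRNA pairs. The matched samples carry no replicate numbers. The members and lists were chosen with earlier results of these data known. Full values are given for the 8 genes of smallest p among those called in Th1 minus Th2 and the 6 of largest range, 1 gene being in both. Elsewhere up to 6 called genes per direction are named, or the 3 highest and 3 lowest, with some further genes of a role chosen after their values were seen. The script was tested on simulated data. Alternatives were the deposited and median-centred signal, other filters, pseudocounts of 1 and 64, a trended or a robust eBayes, 1 or the mean of a gene's probe sets, no block, and each pair left out. Promoters were read with Python 3.11.15 and pandas 2.3.3.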

Additional observations from a re-analysis of the deposited data

Results flagged for a closer look

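The change from 4 h to 12 h differed between Th1 and Th2 by the test of the difference itself for 14 genes. On the log2 scale, the change in Th1 minus that in Th2 was −3.31 for Parp14, −2.37 for Irf1, −1.20 for Trim30a, −1.19 for Rtp4, −1.19 for Dtx3l, −1.02 for Parp9, −0.97 for Ifih1, −0.95 for Herc6, −0.94 for Isg20, −0.90 for Cmpk2 and −0.79 for Ifi35. It was 1.89 for Bst2, 1.31 for Psmb8 and 0.58 for Oasl1. The call of Oasl1 (limma, adjusted p = 0.0497) was kept in 2 of 13 alternatives and lost in 11, where its adjusted p reached 0.375. That of Rtp4 was kept in 13 of 14 and lost with a pseudocount of 64, and its value ran from −2.23 to −0.35. In Th1, and not in Th2, the 2 times also differ in the 3′ to 5′ ratio of the control probe sets. Time and this ratio cannot be told apart there. For Psmb8 and Herc6, another probe set passed in Th1 in the direction opposite to the chosen one. The second probe set of Parp14 gave −0.83 for the difference between the changes.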

How the results depend on the processing

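Over the scalings, filters, pseudocounts, variance models, probe set rules and pairs left out, the count of called genes stayed within 1.5 times the reported one except in the following cases. Without the pair or cell type block, Th1 minus Th2 called 5 genes, siRNA minus untreated 6 and retrovirus 12 h minus untreated 12, the last without Irf1. On the deposited signal, siRNA minus untreated called 10. A pseudocount of 1 left 0 calls in 12 h minus 4 h in Th2. With each pair left out in turn, the difference in time change between Th1 and Th2 called 6 to 14 genes, the fewest without dominant negative Trpm4 in Th1. The Trpm4 comparisons called 0 genes by limma under every alternative run, and the siRNA pairs alone could not be refitted with a pair left out. In these comparisons a few uncalled values changed sign when the 12 h pair was left out. Their ranges over the left-out pairs were, in Th1, −0.0018 to 0.5511 for Oas2 and −0.3393 to 0.0254 for Stat2, in Th2, −0.0202 to 0.4813 for Usp18 and −0.3651 to 0.0407 for Eif2ak2, and, for dominant negative Trpm4 alone, −0.0159 to 0.3527 for Oas2. The cause was not tested in any of these cases. No paired analysis was possible because the labels carry no replicate numbers, beyond the matching by condition.

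The median of the genes moved by 1.5 times or more in these cases. With siRNA it went from −0.56 to −0.21 on the deposited signal. At 4 h against untreated it went from −0.62 to −0.31 on the deposited signal and −0.38 with a pseudocount of 64. At 12 h it went from −1.0 to −1.64 with the filter at the 75th percentile, which tests fewer genes. The difference in time change went from −0.34 to −0.16 and −0.66 with pseudocounts of 64 and 1 and to −0.52 with that filter, and 12 h minus 4 h in Th1 from −0.70 to −0.47 with a pseudocount of 64. Against untreated cells the deposited signal moved the median of all probe sets to 0.28 with siRNA, 0.31 at 4 h and 0.22 at 12 h. The interferon-stimulated core was in 44.4% of the 27 genes as GAAANNGAA, in 33.3% as GAAANNGAAAC and in 22.2% on the gene strand alone. Signals near the background limit Dhx58, Usp18, Oas2, the 3 genes below the filter and, in Th1 outside the 4 h arrays, Rtp4.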
